A study of Mus musculus with 11 samples.

Results

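Interferon-gated endothelial cells are brain endothelial cells that carried transcripts of the antiviral genes interferons switch on. They were chosen among 66658 barcodes of 11 mouse libraries by the numbers of unique molecular identifiers (UMIs, each standing for 1 captured RNA molecule) of 12 genes. Of these barcodes, 61625 were kept, with no fewer than 500 genes and no more than 10% of UMIs from mitochondrial genes. A cell was called endothelial when Cldn5, Flt1 and Itm2a together had at least 4 UMIs and P2ry12, Cx3cr1 (microglia), Vtn and Myh11 (mural cells) together at most 2, which held for 38627 cells. Interferon-gated cells further had at least 5 UMIs over Ifit1, Ifit2, Ifit3, Rsad2 and Isg15, the gate sum, with at least 2 of these 5 genes detected. This left 7629 cells, 325 to 1366 per mouse. They were set against the 13076 endothelial cells with a gate sum of 0. The remaining 17922 endothelial cells were in neither group, and 240 of them had 5 or more UMIs from 1 gene only.

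The libraries came from cerebrovascular cells pulled from brain with CD31-coupled beads, 1 library per mouse, and were made with a 10x Genomics single-cell 3′ kit. CADASIL, an inherited small vessel disease caused by NOTCH3 variants, was modelled by 6 R182C-TgN3 mice, whose transgene encodes human NOTCH3 bearing R182C. The 5 control mice, WT-TgN3, carry the human wild-type NOTCH3 transgene, so both groups express a human receptor beside the mouse one and neither shows the effect of the transgene itself. The R182C-TgN3 mice were 6 months (1 male, 2 females) or 9 months old (1 male, 2 females), and the WT-TgN3 mice were 6 months (1 male, 2 females) or 9 months old (1 male, 1 female). Levels are given as CPM, the UMIs of a gene in a set of cells scaled to the same total for each set. Human NOTCH3 was close to the limit of detection in the interferon-gated cells, at 0.814 ± 0.703 CPM (SD, n = 11 mice), and stood at 244 in mural cells.

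Interferons are secreted cytokines. Type I interferons bind the receptor made of Ifnar1 and Ifnar2, which signals through the kinases Jak1 and Tyk2 to transcription factors, whereas interferon gamma acts through Ifngr1 and Ifngr2. Both routes switch on interferon-stimulated genes that block viral replication, load peptides on MHC class I and recruit lymphocytes. Brain endothelium carries these receptors at the blood-brain interface.

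The promoters of the gate genes are shown because many interferon-stimulated genes carry a short repeated motif there, the interferon-stimulated response element. Its core was searched as GAAANNGAAA, or TTTCNNTTTC on the opposite strand, in the 300 bases from 250 before to 50 after each RefSeq gene start (mouse build GRCm38.p6). Both strands were searched, and overlapping matches were allowed. Of all 32851 promoters, 1131 (3.44%) held a match, against 4 of the 5 gate genes. The 4 are printed 5′ to 3′ on the strand of the gene, with matches in capitals.
Isg15 (chr4:156200769-156201068, minus strand): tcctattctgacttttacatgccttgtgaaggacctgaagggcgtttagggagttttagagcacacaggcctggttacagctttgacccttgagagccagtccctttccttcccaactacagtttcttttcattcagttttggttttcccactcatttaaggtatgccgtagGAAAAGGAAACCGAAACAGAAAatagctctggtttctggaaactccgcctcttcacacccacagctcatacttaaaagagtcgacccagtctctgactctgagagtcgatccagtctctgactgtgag
Ifit1 (chr19:34640639-34640938, plus strand): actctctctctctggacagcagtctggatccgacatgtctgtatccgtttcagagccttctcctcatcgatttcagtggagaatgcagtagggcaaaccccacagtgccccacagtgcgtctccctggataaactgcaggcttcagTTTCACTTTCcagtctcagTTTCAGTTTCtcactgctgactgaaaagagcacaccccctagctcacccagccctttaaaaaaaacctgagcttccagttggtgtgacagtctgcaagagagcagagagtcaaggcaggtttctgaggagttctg
Ifit3 (chr19:34583279-34583578, plus strand): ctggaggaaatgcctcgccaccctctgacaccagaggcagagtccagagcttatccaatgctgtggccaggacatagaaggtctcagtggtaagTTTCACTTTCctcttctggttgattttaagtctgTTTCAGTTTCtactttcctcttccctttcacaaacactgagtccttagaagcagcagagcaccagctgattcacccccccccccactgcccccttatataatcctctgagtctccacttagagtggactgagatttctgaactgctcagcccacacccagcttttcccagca
Rsad2 (chr12:26456403-26456702, minus strand): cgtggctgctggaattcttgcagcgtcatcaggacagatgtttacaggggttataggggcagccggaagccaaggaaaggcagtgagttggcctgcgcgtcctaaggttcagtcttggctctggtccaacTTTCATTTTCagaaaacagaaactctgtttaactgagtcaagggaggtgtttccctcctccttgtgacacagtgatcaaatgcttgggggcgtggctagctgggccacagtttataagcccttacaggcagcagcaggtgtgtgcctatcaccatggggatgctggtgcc
Isg15 had 3 overlapping matches from 78 bases before the start, Ifit1 had 2, Ifit3 had 2 and Rsad2 had 1. The Ifit2 promoter held none of these letters in this window. Among genes that the gate did not use, the motif was present in 9 of 10 promoters matched for the interferon-inducible GTPases, in 13 of 40 for other interferon-stimulated genes and in 5 of 16 for the MHC class I pathway. It was in 0 of the 4 matched promoters of Oasl2, Ifi44, Irf7 and Cmpk2, interferon-stimulated genes described below, and not in that of Oasl1, the gene with the steepest rise. It was in 0 of 13 promoters of blood-brain barrier transporters and in 0 of 13 of endothelial identity genes. The windows of 5 genes described below that hold a match are given as 30 bases around the match nearest the upstream end.
Gbp3 (45 bases before the start): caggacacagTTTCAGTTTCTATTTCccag
Gbp5 (165 bases before the start): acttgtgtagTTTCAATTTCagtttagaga
Gbp7 (53 bases before the start): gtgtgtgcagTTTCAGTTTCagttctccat
Cxcl10 (213 bases before the start): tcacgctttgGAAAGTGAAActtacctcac
Oas1g (18 bases before the start): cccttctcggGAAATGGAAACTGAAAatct
These letters describe the promoters and were not tested as binding sites.

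The gate sum ran without a break from 0 upwards, and the interferon-gated cells were its upper end rather than a separate peak. Of the endothelial cells, 33.9% had a sum of 0, 20.04% had 1, 12.2% had 2, 7.96% had 3 and 5.56% had 4. Just outside the threshold, 2147 cells had a sum of 4, at a median of 5873 UMIs per cell. Just inside it, 1406 cells with a sum of 5 passed, at a median of 6436 UMIs, while 107 cells reached 5 UMIs with a single gene and did not. At the far end, 30 cells had a sum above 60, from 62 to 206, and came from 7 mice, with 18 of them from R182C-TgN3 mice. None of these 30 cells was scored as a doublet, that is, as a droplet with more than 1 cell.

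The 5 genes did not contribute equally. Isg15, a ubiquitin-like protein that is attached to other proteins, was detected in 94.4% of interferon-gated cells and gave 39.4% of the gate UMIs. Ifit1, which binds viral RNA lacking the host cap methylation, was detected in 80.3%, and Rsad2, or viperin, which makes a chain-terminating nucleotide, in 66.3%. Ifit3 was detected in 64.2% and Ifit2 in 36.0%. All 5 genes were seen together in 1064 cells and exactly 2 in 1407. Within mice, correlations between pairs of these genes were taken over endothelial cells of at least 2000 UMIs, each thinned at random to 2000 UMIs. They were low, with medians of 0.151 to 0.289 over 11 mice, as a description of sparse counts that share a library.

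Per mouse, Isg15 in the interferon-gated cells ran from 313 through 370.4 to 405 CPM (lowest, median and highest of 11 mice). Ifit1 ran from 161 through 217 to 278 and Rsad2 from 108 through 163 to 207. No mouse lacked any of these transcripts. Ifit3 ran from 92.0 through 142 to 175, and Ifit2 from 45.2 through 59.6 to 99.9. In the cells that lay between, the means were 127 for Isg15, 55.9 for Ifit1, 72.4 for Rsad2, 33.6 for Ifit3 and 18.7 for Ifit2. The values are those the gate chose on, and the cells of sum 0 have none of these UMIs by construction.

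A gate on a fixed number of UMIs favours deeply captured cells, and this bears on what follows. Interferon-gated cells had median totals of 6233 to 12508.5 UMIs per mouse, against 2157 to 5737 in cells with a gate sum of 0, and the gated cells were the deeper in 11 of 11 mice. Across the 11 mice the share of interferon-gated cells followed the median endothelial depth, with a Pearson r of 0.791 (permutation p = 0.00301, adjusted over 3 relations 0.00903) and a Spearman rho of 0.709 (permutation p = 0.0180, adjusted 0.0541). Without the 2 mice farthest from the median depth, r was 0.725. When cells of at least 2000 UMIs were thinned at random to 2000 UMIs and the gate was set to at least 2 UMIs from at least 2 genes, r fell to -0.200 (permutation p = 0.557). Results are therefore given at full depth and after this thinning where they differ.

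Brain endothelial cells passed the gate far more often than microglia and mural cells. The comparison used the 5 gate genes, and other interferon-stimulated genes were not compared between these cell types. The gate was passed by 19.3% ± 5.22 of endothelial cells (SD, n = 11 mice), 0.794% ± 0.511 of microglia and 0.446% ± 0.569 of mural cells. The endothelial share was higher in 11 of 11 mice against either type (exact sign-flip permutation test, 2-sided, p = 0.000977, the smallest that 11 mice can give). Microglia had median depths of 3892 to 8141.5 UMIs and endothelial cells of 3111 to 7563. In 1 mouse, WT-TgN3 6-1, 0 of 970 microglia passed, which allows a share of up to 0.309%. Mural cells were fewer, and 14 of 2610 passed, 0 to 5 per mouse. In the mice with 0, the counts allow mural shares of up to 1.00 to 3.30%. After thinning, the shares were 16.2% ± 2.41, 0.609% ± 0.327 and 0.717% ± 0.663, with the same p. The summed level of the 5 genes was 439 ± 61.1 CPM over all endothelial cells, 50.7 ± 19.1 over microglia and 46.4 ± 11.3 over mural cells. Between mice, the endothelial and microglial levels were not shown to move together, with r = 0.571 (permutation p = 0.0570, adjusted 0.0854), rho = 0.582 (permutation p = 0.0648, adjusted 0.0973) and r = 0.279 without the 2 mice farthest from the median. Leaving out 1 mouse at a time moved r between 0.412 and 0.656. The level of free RNA in the droplets was not measured.

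Whether CADASIL mice held more of these cells was asked next. The share at full depth was 11.2, 16.2 and 25.8% in the R182C-TgN3 mice of 6 months and 22.4, 23.4 and 18.9% in those of 9 months. It was 14.6, 18.4 and 12.1% in the WT-TgN3 mice of 6 months and 25.1 and 23.8% in those of 9 months. The genotypes overlapped over nearly their whole range, with the lowest and the highest value both from R182C-TgN3. Means of 19.7% ± 5.36 (SD, n = 6) and 18.8% ± 5.64 (n = 5) lay 0.844 percentage points apart (exact permutation test over all splits of the mice, 2-sided, p = 0.799, adjusted over 3 comparisons 0.909). Thinned shares averaged 16.8% ± 2.60 and 15.6% ± 2.26, which lie 1.198 points apart (exact permutation p = 0.418, adjusted 0.627). Within the batches that the labels name, the differences were -1.55, -2.79 and 13.7 points at full depth, and the thinned differences were 1.72, -0.915 and 4.79 points, the last from 1 mouse of each genotype, and the remaining batch held 1 R182C-TgN3 mouse only. No difference between genotypes was shown.

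**Figure D1:**
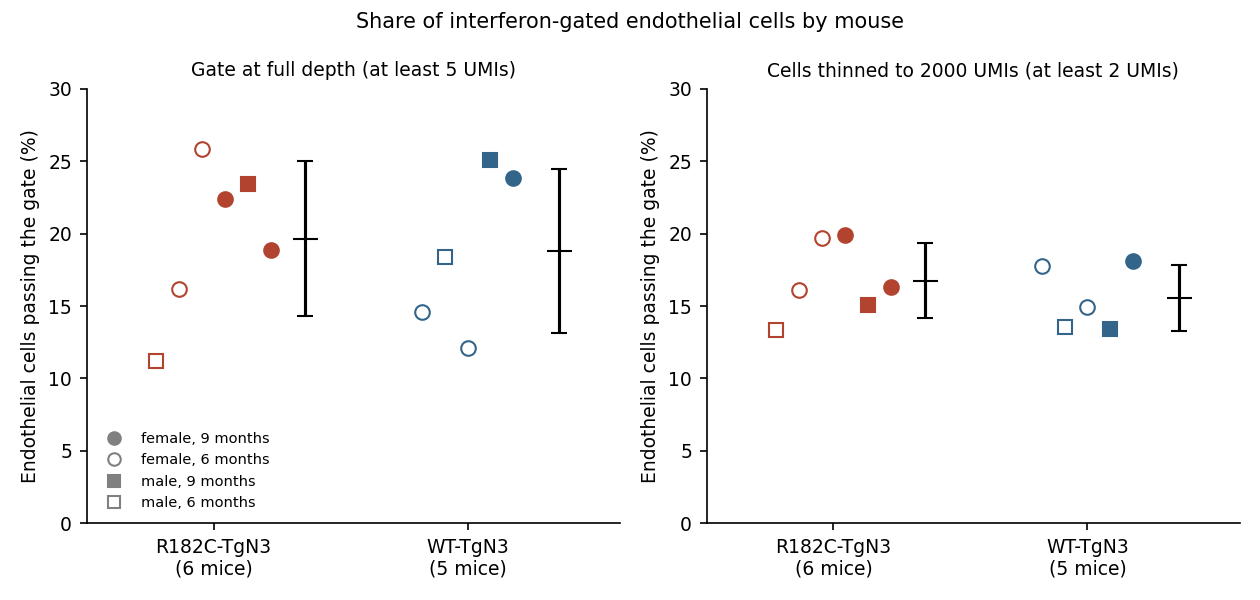
Share of endothelial cells passing the interferon gate in each mouse, in percent, at full depth (left) and after thinning each cell to 2000 UMIs (right); red points are R182C-TgN3 and blue points WT-TgN3 mice, circles female, squares male, filled 9 months, open 6 months, and bars give the mean and SD by genotype. The 4 males sit between 13.4 and 15.04% in the right panel, with 1 female, WT-TgN3 6-3 at 14.9%, among them.

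Age and sex were compared in the same way. At full depth the mice of 9 months had 22.7% ± 2.36 interferon-gated cells (n = 5) and those of 6 months 16.4% ± 5.32 (n = 6), 6.33 points apart (exact permutation p = 0.0411, adjusted 0.123). Leaving out any 1 of 9 of the 11 mice raised the unadjusted p to between 0.0556 and 0.0873 (exact permutation). The difference was 0.659 points after thinning (exact permutation p = 0.639), and no batch held both ages, so age and batch cannot be told apart. For sex, no difference was shown at full depth (19.1% ± 5.10 in 7 females, 19.5% ± 6.23 in 4 males, exact permutation p = 0.909), and one was after thinning. Median endothelial depths averaged 4368 ± 818 UMIs in females and 5735 ± 1776 in males. Thinning left out the endothelial cells under 2000 UMIs, 51 to 882 per mouse. The thinned shares were 16.1, 19.7, 19.9, 16.3, 17.8, 14.9 and 18.1% in the females and 13.4, 15.04, 13.6 and 13.4% in the males. Only 1 of the 7 females, at 14.9%, lay within the range of the males. The means were 17.6% ± 1.88 and 13.8% ± 0.802, 3.71 points apart (exact permutation test over 330 splits, 2-sided, p = 0.00909, adjusted over 3 comparisons 0.0273).

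The sex difference was followed in further ways chosen after it was seen. It was 3.97 points among arterial-marker cells (exact permutation p = 0.0182), 4.22 among cells with neither marker set (p = 0.00606, exact) and 2.73 among venous-marker cells (p = 0.106, exact), classes that are defined further on. In the 2 batches with both sexes, the thinned shares were 18.1 to 19.9% in females against 13.4 to 15.04% in males, and 16.1 to 17.8% against 13.4 to 13.6%. With sexes permuted within batches the difference was 4.14 points (exact permutation p = 0.0556), in a design of only 36 splits. The summed level of the 5 genes over all endothelial cells, which uses no threshold, was 470 ± 48.1 CPM in females and 385 ± 40.4 in males (exact permutation p = 0.0273, adjusted over 3 comparisons 0.0818). With a stricter gate of at least 5 UMIs in the thinned cells, the shares were 3.88% ± 0.945 and 3.35% ± 0.901 (exact permutation p = 0.373), so the difference did not hold there. In the fit of sex over all endothelial cells (edgeR quasi-likelihood test, Benjamini-Hochberg), 12 of 13521 genes (0.0888%) passed an adjusted p of 0.05, and among them were Xist and Ddx3x, which lie on the X chromosome. Of 50 other interferon-stimulated genes 48 had a higher estimate in females, with a median of 0.18 on the log2 scale beside 0.01 over all genes, and 0 passed. In the same edgeR fit 14 of the 50 had an unadjusted p under 0.05, and 370 of all genes did. In the interferon-gated cells alone 1 of the 50 did. Over all endothelial cells 10 of 16 GTPases, 18 of 19 MHC class I genes and 10 of 21 receptor and signalling genes had a higher estimate in females. For all genes this was 7196 of 13521. The MHC class I genes had a median of 0.08, and 0 of them had an unadjusted p under 0.05 in edgeR. Estimates for the gate genes were higher in females for 5 of 5, with a median of 0.35.

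**Figure D2:**
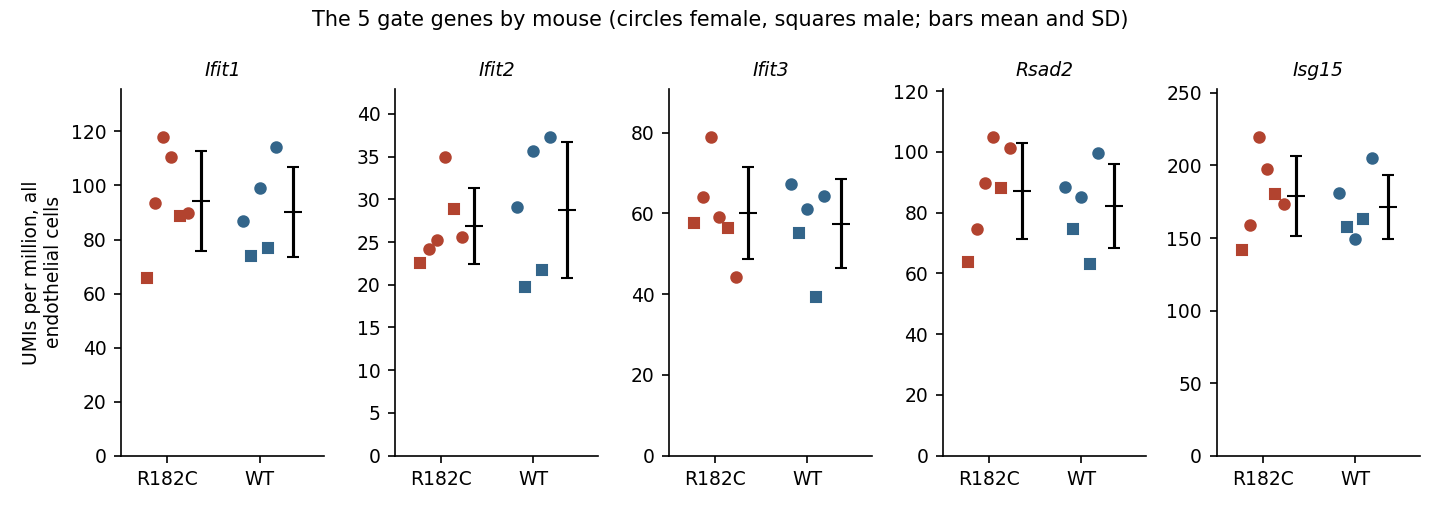
Level of each gate gene over all endothelial cells of each mouse, in CPM (linear axes from 0, a different scale for each gene), by genotype; circles are females, squares males, and bars give the mean and SD of each genotype. Points of both genotypes overlap for each of the 5 genes, and Isg15 was at 179 ± 27.6 in R182C-TgN3 mice and 171 ± 22.2 in the WT-TgN3 group.

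Genotype was also tested gene by gene. Over all endothelial cells, 0 of 13342 genes passed an adjusted p of 0.05 in the edgeR quasi-likelihood test (0%), where 267 had an unadjusted p under 0.05. DESeq2 called 0. In the interferon-gated cells alone, 0 of 11668 genes passed in the edgeR test, 286 had an unadjusted p under 0.05, and DESeq2 called 1, the immunoglobulin gene Ighm. The test of whether the contrast between gated cells and cells of sum 0 differed between genotypes passed 0 of 12481 genes in edgeR, with 384 at an unadjusted p under 0.05. In all endothelial cells the log2 difference, R182C-TgN3 minus WT-TgN3, was 0.14 ± 0.15 (SE) for Ifit1, 0.13 ± 0.15 for Ifit3, 0.15 ± 0.15 for Rsad2, 0.13 ± 0.12 for Isg15 and -0.02 ± 0.16 for Ifit2. The medians were 0.03 over the 50 other interferon-stimulated genes, 0.08 over 16 GTPases and 0.11 over 19 MHC class I genes, beside 0.01 over all genes. Estimates were higher in R182C-TgN3 for 39 of the 50, 15 of the 16 and 18 of the 19, beside 6985 of the 13342 genes. No member of these lists passed the edgeR test, and none had an unadjusted p under 0.05.

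The thinned gate was passed more often on the arterial side of the vascular tree. Endothelial cells change gradually from arteries through capillaries to veins, and cells were sorted by genes that the gate did not use. Arterial-marker cells had at least 2 UMIs of Bmx, Gkn3, Sema3g and Vegfc after thinning to 2000 UMIs, and more than of the venous set. Venous-marker cells had at least 2 of Slc38a5, Nr2f2 and Vwf, and more than of the arterial set. The thinned gate was passed by 20.9% ± 2.61 of 6020 arterial-marker cells (SD, n = 11 mice), 16.7% ± 2.66 of 21761 cells with neither and 11.04% ± 2.69 of 7368 venous-marker cells. By mouse, the arterial share ran from 15.8 through 21.8 to 23.7% and the venous share from 6.95 through 10.9 to 15.3%. The 2 ranges did not overlap. The arterial share was higher than the venous one in 11 of 11 mice, by 9.86 ± 2.58 points (exact sign-flip permutation test, 2-sided, p = 0.000977, the same after adjustment over 3 pairs). Median depths were 5985 UMIs in arterial-marker, 4704 in neither and 6715.5 in venous-marker cells before thinning. The part of depth in these differences was not tested. This comparison was added after the data were seen, and at full depth the difference was 6.91 points with the same exact p.

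**Figure D3:**
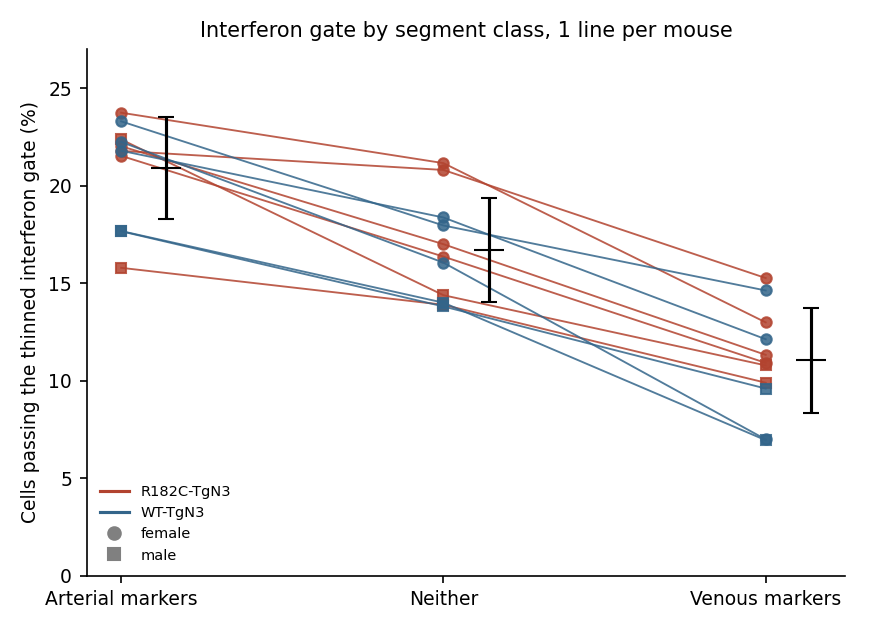
Share of cells passing the thinned interferon gate among cells with arterial markers, with neither set and with venous markers, in percent; each line is 1 mouse (red R182C-TgN3, blue WT-TgN3, circles female, squares male) and bars give the mean and SD over 11 mice. The line of every mouse goes down from 20.9% on average at the arterial end to 11.04% at the venous end.

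Seen from the other side, 24.2% ± 3.84 of interferon-gated cells carried arterial markers against 13.6% ± 3.91 of cells with a gate sum of 0 (exact sign-flip permutation p = 0.000977, higher in 11 of 11 mice). The venous-marker shares were 22.04% ± 1.86 and 21.2% ± 2.74 (exact sign-flip permutation p = 0.114). The gated cells of this comparison were chosen at full depth, and the venous result differed between settings. Without thinning the venous share was 5.85 points higher in gated cells (exact sign-flip permutation p = 0.000977), and with a class minimum of 1 UMI the difference was -1.57 points (exact sign-flip permutation p = 0.0635). By genotype, the arterial difference was 9.16 ± 2.33 points for R182C-TgN3 against 12.2 ± 2.57 for WT-TgN3 (exact permutation p = 0.0671).

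Genes outside the gate were then described in gated cells against cells with a gate sum of 0, on UMI sums per mouse (edgeR quasi-likelihood fit with the mouse as a block). Since the gate made this contrast, its counts are a description and no p is given for single genes. At full depth 3612 of 12481 genes (28.9%) passed an adjusted p of 0.05, 1879 higher (15.1%) and 1733 lower (13.9%). In cells of 3000 to 10000 UMIs, 713 of 11009 genes were higher (6.48%) and 664 lower (6.03%). With the thinned gate, 1177 of 12620 were higher (9.33%) and 1155 lower (9.15%). That setting changed both groups, to 5850 cells passing the thinned gate against 19081 cells with a gate sum of 0 after thinning. Some of these reference cells therefore had gate UMIs at full depth. Of the 1879 genes higher at full depth, 361 were higher in all 3 settings, and 137 and 355 went to the opposite call in the UMI range and with the thinned gate. The gene groups below are therefore given in the order full depth, UMI range, thinned gate. At full depth the mean UMIs per cell, as a median over mice, were 10653 in gated and 4475 in reference cells. They were 5811 and 4926 in the UMI range, and 6854 and 7201 with the thinned gate. No setting made the depths equal.

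The antiviral effectors moved together in all 3 settings. Of 50 tested members of a list of other interferon-stimulated genes, 50, 49 and 50 were higher, with median log2 differences of 0.86, 1.16 and 0.89, beside -0.01, -0.00 and -0.00 over all genes. The steepest was Oasl1, an oligoadenylate synthetase-like protein that restrains translation of Irf7. It ran over the 11 mice from 18.5 through 23.5 to 33.7 CPM in gated cells and from 1.41 through 3.24 to 4.16 in cells of sum 0. The ranges did not overlap, and the log2 difference was 2.97 ± 0.11 (SE). Ifit3b, a close copy of Ifit3, went from 6.33 ± 2.47 to 47.2 ± 6.77 CPM (SD, n = 11), a log2 difference of 2.93 ± 0.09. Reads shared by near-identical copies such as Ifit3 and Ifit3b, or Apol9a and Apol9b, cannot be assigned with certainty.

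Other genes among the 10 largest rises had varied roles. Zbp1, which binds left-handed nucleic acid and can start necroptosis, stood at 17.4 ± 4.70 CPM against 4.07 ± 0.960, a log2 difference of 2.08 ± 0.11. Oas1g, which belongs to the family that activates RNase L, stood at 2.44 ± 0.649 against 0.598 ± 0.483, and Apol9a and Apol9b differed by 2.32 ± 0.23 and 2.11 ± 0.14 on the log2 scale. Oasl2, a relative of Oasl1, ran from 122 through 137 to 167 CPM in gated cells and from 27.4 through 44.1 to 49.9 in cells of sum 0. Its ranges did not overlap either, and it differed by 1.77 ± 0.05. Samhd1, which removes nucleotides that viruses need, and Adar, which edits double-stranded RNA, differed by 0.46 ± 0.03 and 0.69 ± 0.04. The list of nucleic acid sensing genes, to which Samhd1 and Adar belong, was not uniform. In the 3 settings 4 of 15, 5 of 14 and 4 of 15 tested members were higher and 2, 0 and 0 lower. Beside this, 15.1, 6.48 and 9.33% of all genes were higher and 13.9, 6.03 and 9.15% lower. Tbk1 stood at 48.3 ± 5.67 against 47.8 ± 4.62 CPM.

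Regulators of the pathway included Usp18 and Irf7. Usp18, which removes Isg15 from proteins and blocks Ifnar2, stood at 60.3 ± 5.64 CPM against 19.3 ± 3.34, a log2 difference of 1.63 ± 0.06. Irf7, the transcription factor that amplifies type I interferon, stood at 70.9 ± 5.92 against 26.8 ± 6.11. The receptor genes had small differences. Ifnar1 had log2 differences of -0.08 ± 0.03, 0.07 and 0.12 in the 3 settings and Ifnar2 of -0.15 ± 0.03, 0.02 and 0.10, so their sign differed between settings. Irf1 and Stat3 likewise went from 0.81 ± 0.06 and 0.51 ± 0.05 at full depth to -0.03 and -0.17 with the thinned gate. Of the 21 tested receptor and signalling genes, 8, 6 and 8 were higher and 5, 0 and 2 lower. For all genes the shares were 15.1, 6.48 and 9.33% higher and 13.9, 6.03 and 9.15% lower.

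Interferon-inducible GTPases attack the vacuoles of intracellular pathogens and are strongly induced by interferon gamma. They were higher for 16 of 16 members in each setting, with medians of 1.05, 1.35 and 0.93. The shares of all genes that were higher were 15.1, 6.48 and 9.33%. Iigp1 ran from 171 through 309 to 438 CPM in gated cells and from 71.7 through 123 to 202 in cells of sum 0, where the ranges overlapped between mice although it was higher in 11 of 11 mice. Its log2 difference was 1.33 ± 0.07. Gbp7, Gbp3 and Gbp5, whose motif windows are printed above, differed by 0.84 ± 0.03, 0.98 ± 0.04 and 0.75 ± 0.05.

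The MHC class I pathway, which shows peptides to cytotoxic T cells, was higher for 19 of 19 members in each setting. For all genes this was 15.1, 6.48 and 9.33%. The amounts were smaller than for the GTPases, with medians of 0.38, 0.39 and 0.32. B2m, its invariant chain, stood at 1129 ± 232 against 954 ± 239 CPM, a log2 difference of 0.23 ± 0.03 with 11 of 11 mice higher. The class I chains H2-D1 and H2-K1 differed by 0.18 ± 0.03 and 0.25 ± 0.03, and the immunoproteasome subunit Psmb8 by 0.53 ± 0.03. Class II genes, which professional antigen-presenting cells use, had 0 members higher in each setting, of 7, 5 and 7 tested. Cd74, the class II invariant chain, stood at 17.0 ± 12.8 against 20.6 ± 17.4 CPM, and at 294 in microglia.

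Ly6a, Ifitm3, Ly6e and Slfn5, the 4 members of the interferon-stimulated list with the highest CPM in gated cells, each differed by less than the median of that list at full depth. Ifitm3, which traps viruses in endosomes, stood at 1204 ± 199 against 811 ± 110.0 CPM, a log2 difference of 0.54 ± 0.05. Ly6a stood at 1565 ± 185 against 1258 ± 141, a difference of 0.29 ± 0.03. Ly6e and Slfn5 differed by 0.31 ± 0.02 and 0.40 ± 0.03.

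**Figure D4:**
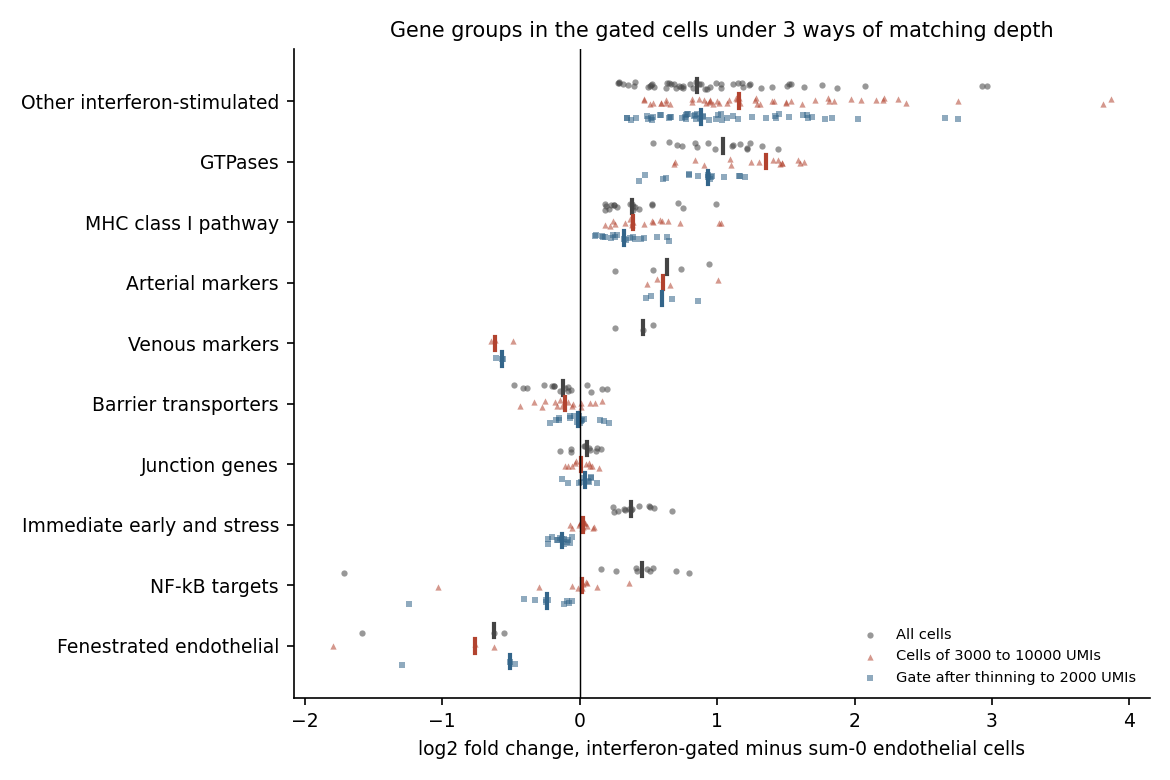
Difference in level of each gene between interferon-gated endothelial cells and those with a gate sum of 0, in log2 units, for 10 gene groups; grey circles are the full-depth gate, red triangles cells of 3000 to 10000 UMIs and blue squares the gate after thinning, and upright bars are medians. For the blue squares both groups of cells were set on the thinned counts. The interferon, GTPase, MHC class I and arterial groups lie to the right of 0 in each setting, and the venous and stress groups change side.

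Chemokines and adhesion molecules were mixed. Cxcl10, which attracts activated T cells, ran from 11.2 through 28.2 to 60.8 CPM in gated cells and from 1.95 through 8.74 to 26.0 in cells of sum 0, with overlap between mice and 11 of 11 mice higher. Its log2 difference was 1.73 ± 0.23 at full depth, 1.52 in the UMI range and 0.71 with the thinned gate. The adhesion molecules Icam1 and Vcam1, which arrest leukocytes, had full-depth differences of 0.93 ± 0.08 and 0.80 ± 0.12, and turned to -0.32 and -0.02 in the UMI range and -0.71 and -0.29 with the thinned gate. Cxcl12 went the other way, from -0.51 ± 0.04 to 0.22 and 0.46. Genes of the immediate early and stress response, which tissue dissociation induces, and targets of NF-kB were higher mainly at full depth. There 13 of 13 and 9 of 10 members were higher, against 0 and 1 in the UMI range and 0 and 0 with the thinned gate. Lower were 0 and 1 at full depth, 0 and 1 in the UMI range, and 11 and 7 with the thinned gate. Fos was at 0.50 ± 0.05, 0.11 and -0.11 on the log2 scale in the 3 settings.

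The 4 arterial markers kept their direction and the 3 venous markers did not. In wider lists of 6 genes each, which include these markers, arterial genes were higher for 5, 6 and 6 members. Venous genes were higher for 3, 0 and 0 and lower for 1, 6 and 6, with Lcn2 lower in each setting (-1.71, -1.03 and -1.24). The 4 arterial markers were higher in each setting, with medians of 0.64, 0.61 and 0.60. Gkn3, an arterial endothelial gene of brain, stood at 244 ± 73.3 against 128 ± 54.0 CPM, with 10 of 11 mice higher and a log2 difference of 0.94 ± 0.10. Vegfc, a growth factor for lymphatic vessels, differed by 0.74 ± 0.05, Sema3g by 0.53 ± 0.04 and Bmx by 0.26 ± 0.07. The 3 venous markers were higher at full depth, with a median of 0.46, and lower in both other settings, at -0.62 and -0.56. Vwf, the von Willebrand factor, was at 0.46 ± 0.06, -0.49 and -0.56, and Nr2f2, the transcription factor of venous identity, at 0.53 ± 0.06, -0.64 and -0.61. Markers of fenestrated endothelium, Plvap, Plpp3 and Esm1, were lower for 3 of 3 members in each setting, with Esm1 at -1.58 ± 0.24 at full depth.

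Barrier genes were mixed, with small differences. Of 16 transporters 3, 2 and 3 were higher and 9, 9 and 5 lower, with medians of -0.12, -0.11 and -0.01. Slc2a1, the glucose transporter of the barrier, stood at 982 ± 100.4 against 929 ± 104 CPM, and the efflux pump Abcb1a at 1527 ± 157 against 1419 ± 151. Slco1a4, a transporter of organic anions, stood at 2113 ± 378 against 2383 ± 393. Among 10 tested junction genes 4, 2 and 4 were higher and 1, 1 and 2 lower. Over all genes 15.1, 6.48 and 9.33% were higher and 13.9, 6.03 and 9.15% lower in the 3 settings. Cdh5, the adherens junction cadherin of endothelium, was at 574 ± 79.6 against 538 ± 82.8, and Pecam1, the CD31 used for isolation, at 792 ± 100.4 against 756 ± 90.7. The endothelial identity list had a summed level of 17019 ± 942 CPM in gated cells and 17593 ± 1328 in cells of sum 0.

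Other cell types left traces in both sets of cells. Of the genes lower in every mouse, the largest falls were Ecrg4, Ttr, Htr2c, Ptgds and Vat1l, with log2 differences of -3.88 ± 0.37, -3.85 ± 0.48, -3.60 ± 0.32, -3.04 ± 0.37 and -3.00 ± 0.41. Ttr, Ecrg4 and Htr2c are abundant in choroid plexus epithelium, and 4 of 4 choroid plexus markers summed to 219 (55.9 to 707) CPM in gated cells against 3012 (75.2 to 7459) in cells of sum 0. Microglial markers, 9 of 9 detected, summed to 340 (200 to 543) against 661 (349 to 1054), and were lower for 9, 7 and 0 of 9 members in the 3 settings. Haemoglobin genes, 4 of 4 detected, summed to 7992 (1041 to 23878) against 3517 (1349 to 7651) and were higher for 4, 1 and 0 members. Smooth muscle markers summed to 17.1 (7.64 to 27.1) against 73.1 (9.01 to 494), pericyte markers to 34.0 (7.38 to 55.04) against 40.3 (12.01 to 94.9) and neutrophil markers, with 1 and 2 of 3 at 0, to 0.0861 against 0.0369. Astrocyte, oligodendrocyte, neuron, fibroblast, B cell, T cell and perivascular macrophage markers each summed to at most 48.1 CPM on average in either set. Their part in the falls and rises was not tested. Median mitochondrial shares were 3.26% ± 0.206 in gated cells and 3.402% ± 0.235 in cells of sum 0. Scored doublets were 455 of the 7629 gated and 139 of the 13076 cells of sum 0.

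Within a narrow range of depth, the programme rose in step with the gate sum, also below the threshold. In cells of 5000 to 8000 UMIs, the other interferon-stimulated genes summed to 5274, 5743, 6308 and 7062 CPM at gate sums of 0, 1, 2 and 3 to 4. They summed to 8142, 9920 and 14664 at sums of 5 to 7, 8 to 14 and 15 or more. Cells under the threshold thus already differed from those at 0. GTPases rose from 847 to 3214 and the MHC class I pathway from 4040 to 6267 over the same range, while barrier transporters went from 9961 to 9106. Relative to the cells of sum 0 of the same mouse, the highest class stood at 3.97 ± 0.735 for GTPases, 2.78 ± 0.431 for other interferon-stimulated genes, 1.53 ± 0.220 for MHC class I and 0.498 ± 0.126 for venous markers (SD, n = 8 mice). Arterial markers stood at 1.64 ± 0.861 there, with a range of 0.816 to 3.62, so mice did not all share that direction in this class, for which mice with fewer than 10 such cells were left out.

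**Figure D5:**
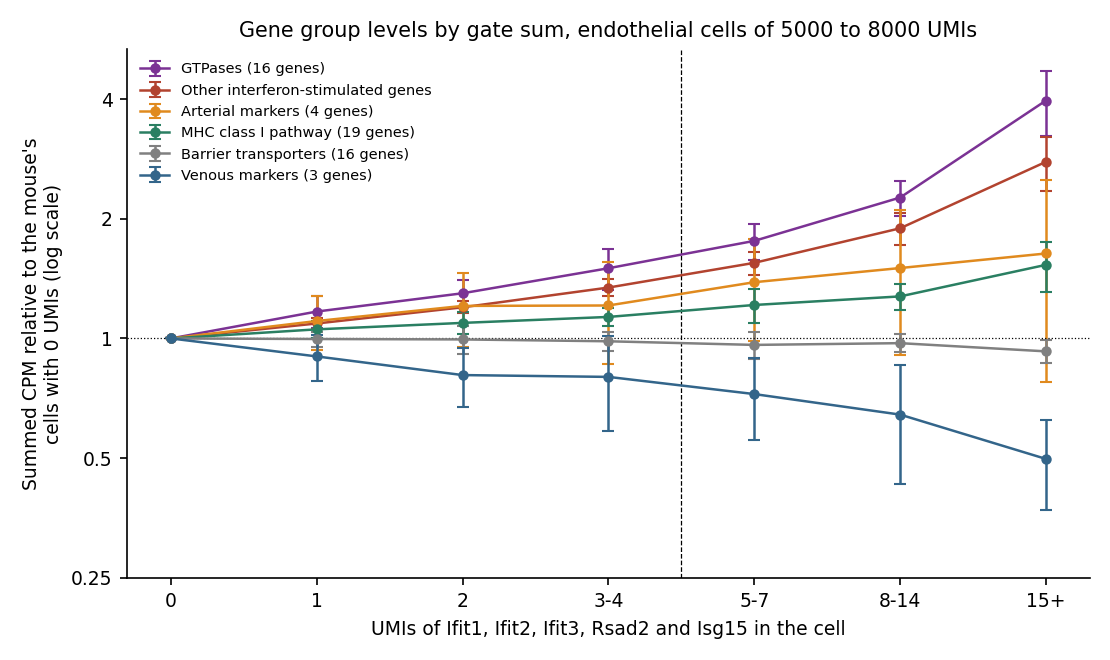
Summed level of 6 gene groups in endothelial cells of 5000 to 8000 UMIs by the number of gate UMIs in the cell, relative to cells with a gate sum of 0 of the same mouse (log axis); points and bars give the mean and SD over 11 mice, 8 in the last class, and the dashed line is the gate threshold. GTPases climb to 3.97 and venous markers fall to 0.498 in the last class, and barrier transporters stay near 1.

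The 5 gate genes were also read in cells chosen on 5 other interferon-stimulated genes. This gate was added after the data were seen, and its genes were themselves among those higher in interferon-gated cells, so its values are a description and no p is given. It took cells of 3000 to 10000 UMIs with at least 3 UMIs from at least 2 of Usp18, Oasl2, Ifi44, Irf7 and Cmpk2, a mitochondrial nucleotide kinase. This left 4301 cells, of which 51.9% were interferon-gated as defined above, and these were 53.3% of the interferon-gated cells in that depth range. The range held 23850 endothelial cells in all, of which 4188 were interferon-gated. Against the 9762 cells with none of these UMIs, Isg15 stood at 441 ± 64.0 against 88.6 ± 20.8 CPM, a log2 difference of 2.33 ± 0.09 (SE). Ifit3 stood at 179 ± 27.2 against 20.7 ± 5.51, a difference of 3.15 ± 0.07. Ifit1 differed by 2.62 ± 0.06, Ifit2 by 2.58 ± 0.11 and Rsad2 by 1.52 ± 0.06. Each of the 5 was higher in 11 of 11 mice, where 862 of 11152 genes (7.73%) were called higher and 697 (6.25%) lower. Median depths were 5841 and 4611 UMIs, so part of the depth gap remained.

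Interferon transcripts themselves were rare. Of 21 ligand genes, 15 had 0 UMIs in the 61625 cells kept. Ifnb1, the main type I interferon of brain cells, had 131 UMIs in 52 cells of 9 mice, of which 101 lay in microglia and 1 in interferon-gated cells. Ifng, made by T and natural killer cells, had 449 UMIs in 120 cells, with 2 in interferon-gated cells. Ifnk had 124 UMIs in 123 cells, of which 27 lay in interferon-gated cells and 36 in cells with a gate sum of 0. A single cell held up to 22 UMIs of Ifng and up to 9 of Ifnb1, and at most 2 of Ifnk. Ligand counts were not compared between genotypes.

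Library totals ran from 17550806 to 64215050 UMIs, a median of 43857411. Pairs of libraries shared 3 to 172 kept cell barcodes, at most 5.77% of the smaller library, and 4 barcodes of interferon-gated cells occurred in more than 1 library. Intervals and SDs cover the spread between these mice, 1 library each.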

How the data were processed

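The deposited files hold raw UMI counts per gene and barcode, made by the authors with Cell Ranger 7.0.0 against mm10 with human NOTCH3 added. Cells were filtered and gated as described, members were summed per mouse, and levels are CPM, computed on each sum. The members, gene lists and comparisons were chosen with earlier results of these data known. As in the authors' own fits, genes for ribosomal proteins, mt- genes and genes named Gm with a number or ending in Rik were removed, and the 12 gate genes were left out of the contrast with cells of sum 0. Fits used edgeR 4.0.16 (filterByExpr, TMM, quasi-likelihood F-test, Benjamini-Hochberg), with R 4.3.3, limma 3.58.1 and DESeq2 1.42.0 as an alternative. Genotype and sex were fitted on sums per mouse without a replicate block, and the contrast with cells of sum 0 with the mouse as a block. Shares were compared by exact permutation over mice (scipy 1.17.1). Replicate numbers did not pair the mice. Genes were named as the 10 largest rises and 5 largest falls past the threshold with 1 sign in every mouse, up to 4 members of each list with the highest CPM in gated cells, and the gate genes, and genes of the sex fit were added after their values were seen. Some genes that this rule names are not reported here. Checked on simulated counts, the genotype fit over all endothelial cells recovered 80% of 100 genes changed by 1 on the log2 scale and 32% of 100 changed by 0.5, with 76% and 24% in gated cells. Doublets were scored and kept. Intervals for shares of 0 cover counting error only.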

Additional observations from a re-analysis of the deposited data

How the results depend on the processing

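The genotype difference in share, 0.844 points, was -0.722 with a gate on 5 other genes and -0.0127 with the thinned gate at 5 UMIs. Leaving out 1 mouse at a time gave -0.826 to 2.53 for genotype, 5.29 to 8.22 for age and -3.18 to 1.45 for sex. Age gave 0.659 after thinning. Sex gave 1.51 with a gate of 3 UMIs and 3.71 after thinning. The thinned sex difference was 0.527 at 5 UMIs, 2.73 in venous-marker cells and 4.14 within batches, and 3.31 to 4.15 without each mouse. The correlation of endothelial and microglial levels was 0.412 to 0.656 without each mouse, with permutation p = 0.0179 without WT-TgN3 6-1 and 0.0438 without WT-TgN3 9-1. The arterial minus venous share was 9.32 to 10.3 points without each mouse. The venous-marker share of gated cells minus that of cells of sum 0 was 5.85 points without thinning, -1.57 with a class minimum of 1 UMI, and 0.614 to 1.18 without each mouse, with exact permutation p = 0.0215 without R182C-TgN3 6-1. Genes past the threshold in gated cells against cells of sum 0 were 3612, and 1377 in cells of 3000 to 10000 UMIs, 2332 with the thinned gate and 2164 against cells of 1 to 4 gate UMIs. For genotype in gated cells the count of 0 became 1 with DESeq2 (Ighm) and 1 with the replicate block (Mia). With the replicate block the share differed by 1.00 points (exact permutation p = 1) and no gene passed over all endothelial cells, and replicate numbers were not shown to pair the mice. Signs turned, in the UMI range and the thinned gate in that order, for Ifnar1 (0.0725, 0.12), Ifnar2 (0.0170, 0.10), Vwf (-0.49, -0.56), Slc38a5 (-0.62, -0.56), Nr2f2 (-0.64, -0.61), Icam1 (-0.32, -0.71), Vcam1 (-0.0197, -0.29), Cxcl12 (0.22, 0.46) and Tjp1 (-0.11, -0.13), and with the thinned gate alone for Stat3 (-0.17), Irf1 (-0.0296), Jun (-0.11) and Fos (-0.11). The cause of these changes was not tested. Several of these alternatives were chosen after seeing the data.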
